A study of Mus musculus with 8 samples.

Results

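A set of 9 amino acid transporter genes, chosen by name, was read in mouse naive CD4 T cells and in Th17 cells, the helper T cells that make interleukin 17, raised from such cells in culture. They were Slc7a5, Slc3a2, Slc1a5, Slc1a4, Slc7a1, Slc7a6, Slc38a1, Slc38a2 and Slc7a11, and all 9 were found by symbol among the 16308 genes of the deposited count table. All cells came from the C57BL/6 strain. The naive group held 2 libraries of untreated CD4 T cells. The Th17 group held 2 libraries of cells cultured for 72 h with 0.25 µg/mL anti-CD3ε and 1 µg/mL anti-CD28 antibodies, to which 0.1 ng/mL of TGF-β and 20 ng/mL of the cytokine IL-6 were added, so that stimulation, culture and cytokines changed together between the groups. These are the dose and time on each sample's label, whereas the growth protocol gives a range of TGF-β doses that starts at this one and the treatment protocol also names an earlier time. A further culture under the same treatment gave 2 wild-type and 2 DDX5-deficient Th17 libraries. DDX5 is an RNA helicase, and what drives its deletion is not given in the sources used here. Those 4 libraries were used only for lists of A-to-I edited RNA sites. The series' design text calls the libraries of a group independent replicates. The column headings of the counts mark the libraries of both groups as WT, that is wild type, and begin with the name Malat1, which is not interpreted here. They give naive library 2 and Th17 library 2 the same number, and library 1 of each group a number of its own. Whether the shared number marks 1 animal is not given in the sources used here.

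Amino acids cross the plasma membrane through transporters, some of which exchange one amino acid for another and some of which bring one in together with sodium. The proteins encoded by Slc7a5, Slc7a6 and Slc7a11 are light chains that reach the cell surface bound to a shared heavy chain, CD98, which Slc3a2 encodes. Activated T cells are known to take up leucine, glutamine, arginine and cystine for growth, and leucine and arginine feed the kinase complex mTORC1. The transcription factor ATF4 is known to induce several of these transporter genes when amino acids run short, through a composite element that it shares with C/EBP proteins.

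RNA from both groups matched the labels. The 7 naive T cell markers summed to 7285 and 7565 CPM in the naive and to 1266 and 1185 CPM in the Th17 libraries, where CPM is edgeR's depth-scaled read count on TMM library sizes. The 7 Th17 markers summed to 1.01 and 0.634 CPM in naive and to 4068 and 3645 CPM in Th17 libraries. Of the other marker lists, dendritic cell markers summed to 6.47 and 4.08 CPM in naive and to 109 and 112 CPM in Th17 libraries, and 3 of the 5 tested were higher. Markers of CD8 and NK cells (92.5 and 108 CPM in naive, 54.9 and 53.7 CPM in Th17) and of myeloid cells (22.9 and 15.4, then 4.61 and 5.23 CPM) were lower for 3 of 6 and 5 of 7 tested genes, B cell markers reached at most 3.24 CPM and erythroid markers at most 13.1 CPM, and 5 CD4 T cell markers went from 4270 and 4933 to 1644 and 1462 CPM. Their part in the results was not tested. Library totals lay between 11768994 and 26624436 reads, and Th17 library 2 was the shallowest. That library stood apart. A list of 20 kidney markers, added after the transporter values were seen, summed to 2086 CPM in Th17 library 2 and to between 2.89 and 4.37 CPM in the other 3 libraries, and all 20 lay over 8 times higher in it than in Th17 library 1. A list of 12 fibroblast markers, added likewise, summed to 1216 CPM there, to 265 CPM in Th17 library 1 and to at most 1.43 CPM in naive cells. Of the sum in Th17 library 1, 257 CPM came from the gene Lum alone, which had 203 CPM in library 2. The part of these markers in the results was not tested, and results that change without Th17 library 2 are given with and without it. None of the 9 transporter genes lay over 8 times higher in Th17 library 2 than in library 1, and each of the 9 was lower in library 2. By that measure, with at least 10 reads in library 2, 1189 of all 16308 genes lay higher, and 186 of them were among the 11989 tested. As all 9 were tested, finding 0 does not set them apart from other tested genes. In bulk RNA, fewer cells with a transcript and less of it per cell cannot be told apart.

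Transporter genes were a mixed group in the comparison of Th17 with naive cells. Of the 9 genes, 5 were higher and 1 was lower at an adjusted p under 0.05 (edgeR, quasi-likelihood test, Benjamini-Hochberg over all 11989 genes tested), and 3 were not called. Among all genes tested, 65.1% were called, 34.3% as higher and 30.7% as lower. Of all calls 52.8% were higher, or 66.4% when libraries were scaled by total counts alone, and with that scaling 7 of the 9 genes were higher and 0 lower. The 5 that rose were Slc7a11, Slc1a4, Slc7a1, Slc7a5 and Slc3a2, and Slc38a2 fell. Among the 5, Slc7a11 had 0 naive reads and passed the filter through its Th17 reads alone, so its call could only be higher. Slc38a1, Slc7a6 and Slc1a5 were not called. The median log2 fold change of the 9 genes was 0.89, against 0.06 over all genes tested.

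**Figure D1:**
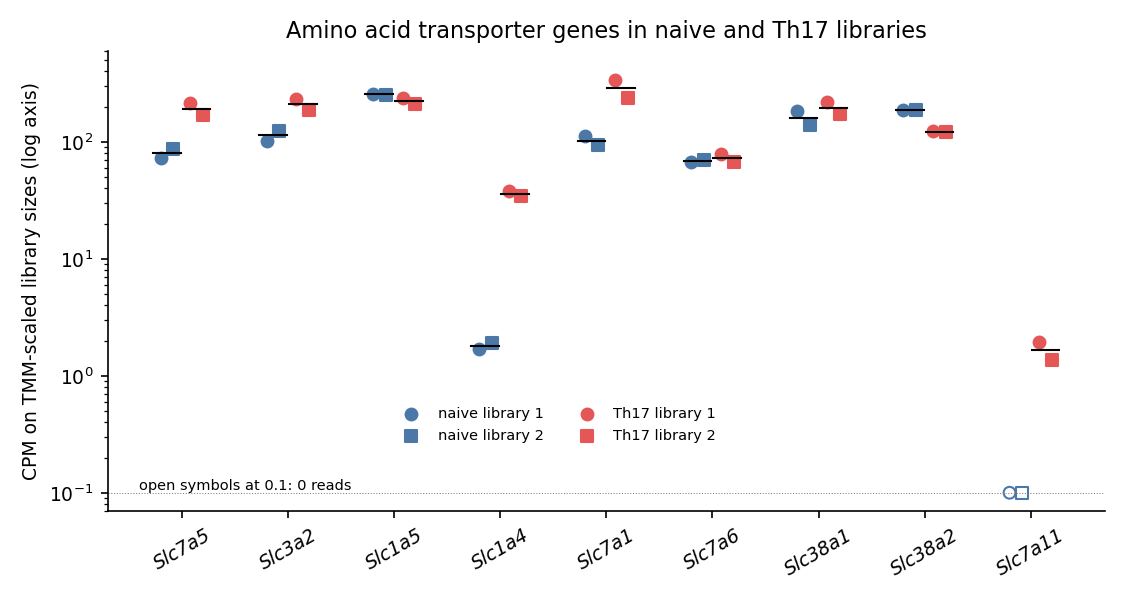
Level of each of the 9 transporter genes in every library, in CPM on a log axis, with naive libraries in blue, Th17 libraries in red, circles for library 1, squares for library 2 and a black line at each group's mean. Slc7a11 rises from 0 naive reads and Slc1a4 from under 2 CPM, whereas Slc1a5, Slc7a6 and Slc38a1 lie at similar levels in both groups.

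Upstream sequence is shown for the 2 genes that rose most, for Slc3a2 as a gene with a smaller rise and for Slc38a2, the gene that fell. RefSeq promoter windows of build GRCm38.p6 were found for 6 of the 9 genes (Slc7a11, Slc7a1, Slc7a6, Slc1a4, Slc38a2 and Slc3a2). Each printed stretch runs 5′ to 3′ on the gene's strand, from 120 bases before the annotated transcription start to 10 bases from it, and capitals mark matches to 2 of the motifs searched, TGATGNAA of the amino acid response and TGACNNNGC of the antioxidant response. Slc7a11 is at chr3:50443604-50443733, Slc1a4 at chr11:20332704-20332833, Slc3a2 at chr19:8713888-8714017 and Slc38a2 at chr15:96699719-96699848, all on the minus strand. The Slc3a2 window is at a start inside the gene's bounds, which reach 8723369, and the 5′ end of that gene was not searched.
Slc7a11: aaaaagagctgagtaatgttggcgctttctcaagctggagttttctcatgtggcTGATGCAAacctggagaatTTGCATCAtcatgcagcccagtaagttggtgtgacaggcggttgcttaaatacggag
Slc1a4: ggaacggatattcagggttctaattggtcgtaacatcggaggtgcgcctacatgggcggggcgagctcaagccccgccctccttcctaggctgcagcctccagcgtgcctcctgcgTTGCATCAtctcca
Slc3a2: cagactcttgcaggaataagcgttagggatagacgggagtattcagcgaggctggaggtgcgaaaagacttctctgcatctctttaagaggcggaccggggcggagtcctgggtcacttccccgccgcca
Slc38a2: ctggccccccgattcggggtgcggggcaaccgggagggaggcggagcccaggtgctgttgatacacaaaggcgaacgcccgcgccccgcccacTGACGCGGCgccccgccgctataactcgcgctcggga

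The windows searched were 300 bases long, 250 before and 50 after the start, on both strands. The amino acid response motif TGATGNAA was present in the windows of Slc7a11 and Slc1a4 and had no match in those of the other 4 genes. In Slc7a11 it occurred 2 times in opposite orientation, TGATGCAA and TTGCATCA, with 11 bases between the matches. Slc1a4 had 1 match, TTGCATCA, which spans the annotated start. Of 32851 windows of all genes, 3.97% held the motif and 23 windows held it at least 2 times. The antioxidant response motif TGACNNNGC, bound by NRF2, matched in Slc38a2, Slc7a1 and Slc7a6 and in 12.4% of all windows. The E-box CACGTG, bound by MYC, had no match in these windows and was present in 7.15% of all windows. No match overlapped a match to another motif. A match describes the letters alone, and the data hold no measure of binding.

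The heavy chain gene Slc3a2 (chromosome 19, 8706882 to 8723369, GRCm38) had 102 and 125 CPM in naive and 231 and 188 CPM in Th17 cells. Both Th17 libraries lay above both naive ones, with means of 113 ± 16.0 and 210 ± 29.9 CPM (SD, n = 2). The log2 fold change was 0.89 (SE 0.18), and edgeR gave an adjusted p of 0.0021. Without naive library 1 the log2 fold change was 0.71 and the call was lost, with an adjusted p of 0.062 by edgeR.

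Slc7a5 (chromosome 8, 121881150 to 121907694) encodes LAT1, the exchanger for leucine and other large neutral amino acids. It had 72.8 and 86.5 CPM in naive and 213 and 168 CPM in Th17 cells. The rise was 2.40-fold in mean CPM, with a log2 fold change of 1.26 (SE 0.18) at an adjusted p of 0.00029 by edgeR. Slc7a5 was called in each of the 11 alternatives run, at a log2 of 1.05 to 1.56.

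Slc7a6 (chromosome 8, 106168857 to 106198706) encodes another light chain, which exchanges cationic for neutral amino acids. It did not follow its partners. Its levels were 66.9 and 70.1 CPM in naive and 78.4 and 66.5 CPM in Th17 cells, so the groups overlapped. The log2 fold change was 0.08, with a 95% interval of -0.28 to 0.44 and an adjusted p of 0.66 by edgeR, so that a rise as large as that of Slc7a5 lies outside the interval.

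Slc7a11 (chromosome 3, 49892526 to 50443614) encodes xCT, the light chain that imports cystine in exchange for glutamate. It had 0 reads in both naive libraries and 56 and 18 reads in the Th17 libraries, or 1.94 and 1.36 CPM. It passed the filter on low counts through its Th17 reads alone, so a call could only be higher. Against a floor of 3 reads in each naive library, which corresponds to 0.185 CPM, the mean of 1.65 ± 0.409 CPM (SD, n = 2) was at least 8.93-fold higher. Its adjusted p of 0.0007 by edgeR thus adds no support beyond the reads themselves, and the call was lost without naive library 1. Even in Th17 cells Slc7a11 stayed the lowest of the 9 genes.

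Levels of different genes were compared as RPKM, that is CPM per kilobase of annotated exons. The 3 light chain genes together had 1.19 and 1.10 times the RPKM of Slc3a2 in naive and 1.14 and 1.12 times in Th17 libraries, so the groups overlapped for this sum. Its make-up moved. Slc7a5 had 1.34 and 1.52 times the level of Slc7a6 in naive and 3.35 and 3.12 times in Th17 libraries. The level of Slc7a5 relative to Slc3a2 was 0.680 and 0.662 in naive and 0.879 and 0.850 in Th17 libraries. Slc7a6 relative to Slc3a2 went the other way, from 0.507 and 0.435 to 0.263 and 0.273. None of these ratios overlapped between groups, and a ratio within a library does not depend on the scaling between libraries. The size of a ratio depends on the gene length used. Per kilobase of principal transcript, a length added after the data were seen, the 3 light chains together had 0.688 and 0.633 times the level of Slc3a2 in naive and 0.644 and 0.635 times in Th17 libraries, below 1 in place of above it. Slc7a5 relative to Slc3a2 was then 0.369 and 0.360 in naive and 0.478 and 0.462 in Th17 libraries, and Slc7a6 relative to Slc3a2 0.319 and 0.273, then 0.165 and 0.171. For a ratio of 2 genes the fold between groups is the same for either length, which does not hold for the sum of 3 genes. In the exact permutation test, two-sided, the 5 ratios examined each had p = 0.333, before and after Benjamini-Hochberg adjustment over the 5, which is the smallest value that 2 against 2 libraries can give.

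**Figure D2:**
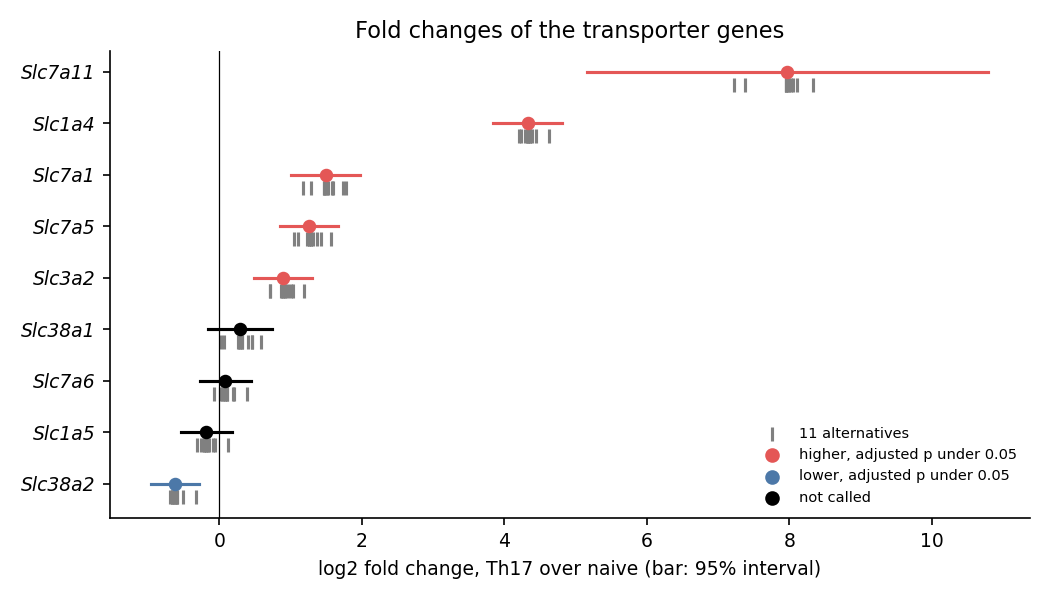
Fold change (log2, Th17 over naive) of each gene (points) with its 95% interval (bars), red where called higher, blue where called lower and black where not called, and grey ticks for the 11 alternatives. Intervals of Slc38a1, Slc7a6 and Slc1a5 cross 0, and the fitted value of Slc7a11 depends on 0 naive reads and is no bound.

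Slc7a1 (chromosome 5, 148327410 to 148399904) encodes CAT1, the main importer of arginine and lysine in many cells. It had 111 and 93.4 CPM in naive and 339 and 235 CPM in Th17 cells, and the groups did not overlap. The mean rose 2.81-fold, with a log2 fold change of 1.49 (SE 0.21) and an adjusted p of 0.00035 by edgeR. Without naive library 2 the log2 fold change was 1.29 and the adjusted p was 0.059 by edgeR.

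The 2 neutral amino acid transporters of the Slc1 family behaved differently. Slc1a5 (chromosome 7, 16781340 to 16798274) encodes ASCT2, a sodium-dependent exchanger with a high capacity for glutamine. It had 255 and 253 CPM in naive and 239 and 208 CPM in Th17 cells. Both Th17 libraries lay below the naive ones, but the log2 fold change of -0.18 was not called, with a 95% interval of -0.54 to 0.18 and an adjusted p of 0.33 by edgeR. Slc1a5 lay at a positive log2 of 0.12 when libraries were scaled by total counts alone, again without a call.

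Slc1a4 (chromosome 11, 20302180 to 20332713) encodes ASCT1, which carries alanine, serine, cysteine and threonine. Its naive libraries had 32 and 27 reads, or 1.70 and 1.90 CPM, and its Th17 libraries 37.7 and 34.5 CPM. The mean went from 1.80 ± 0.144 to 36.1 ± 2.26 CPM (SD, n = 2), a rise of 20.1-fold with a log2 fold change of 4.33 (SE 0.21) and an adjusted p of 5.9e-07 by edgeR. The call was kept in each of the 11 alternatives run. Slc1a5 had 141 and 125 times the RPKM of Slc1a4 in naive and 5.96 and 5.69 times in Th17 libraries, so Slc1a5 remained the more abundant transcript of the pair. With principal transcript lengths these ratios were 213 and 189, then 9.01 and 8.59.

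The system A transporters, which bring in glutamine and alanine together with sodium, also differed. Slc38a2 (chromosome 15, 96687392 to 96699730) encodes SNAT2 and was the only one of the 9 genes called lower. It had 188 and 187 CPM in naive and 123 and 120 CPM in Th17 cells, and the replicates lay close together in both groups. The log2 fold change was -0.62 (SE 0.15), and edgeR gave an adjusted p of 0.0049. With scaling by total counts alone it was -0.32 with an adjusted p of 0.052, and that scaling raised the median of all genes by 0.30 in log2.

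Slc38a1 (chromosome 15, 96571418 to 96642913), a nearby gene that encodes SNAT1, had 183 and 138 CPM in naive and 220 and 172 CPM in Th17 cells. The groups overlapped. Its log2 fold change of 0.29 had a 95% interval of -0.16 to 0.73 and an adjusted p of 0.22 by edgeR, whereas the authors' deposited table, made with DESeq2, lists 0.32 with an adjusted p of 0.0091. In DESeq2 run here as an alternative it was also not called. Slc38a1 had 0.498 and 0.378 times the RPKM of Slc38a2 in naive and 0.915 and 0.733 times in Th17 libraries. With principal transcript lengths the values were 0.623 and 0.473, then 1.15 and 0.917.

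In naive cells Slc1a5 had the highest level per length, at 60.9 ± 0.225 RPKM (SD, n = 2). Slc3a2 followed at 32.1 ± 4.54, then Slc7a5 at 21.5 ± 2.63 and Slc38a2 at 21.2 ± 0.0861 RPKM, which overlapped each other. Below them lay Slc7a6 at 15.0 ± 0.498, and Slc38a1 at 9.30 ± 1.84 and Slc7a1 at 8.88 ± 1.09 RPKM, again overlapping. In Th17 cells Slc3a2 at 59.4 ± 8.48, Slc1a5 at 53.6 ± 5.14 and Slc7a5 at 51.4 ± 8.53 RPKM (SD, n = 2) formed an overlapping top group. Slc7a1 came next at 24.9 ± 6.40 RPKM, and then, with no overlap between neighbours, Slc7a6, Slc38a2, Slc38a1 and Slc1a4 from 15.9 down to 9.19 RPKM.

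Of the summed RPKM of the 9 genes, Slc1a5 took 36.7% and 35.2% in naive and 21.8% and 23.1% in Th17 libraries. Slc7a5 went from 11.8% and 13.5% to 21.8% in Th17 library 1 and slightly less in library 2, and Slc7a1 from 5.81% and 4.70% to 11.2% and 9.43%. The sum itself was 166 and 172 RPKM in naive and 263 and 216 RPKM in Th17 libraries. Per kilobase of the principal transcript in place of all annotated exons, a length added after the data were seen, Slc3a2 lay at 115 and Slc1a5 at 80.9 RPKM in Th17 cells without overlap, and Slc38a2 at 40.2 RPKM moved ahead of Slc7a5 in naive cells. Order among genes, shares and sums thus depend on the length used, while the fold of a single gene between groups does not.

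**Figure D3:**
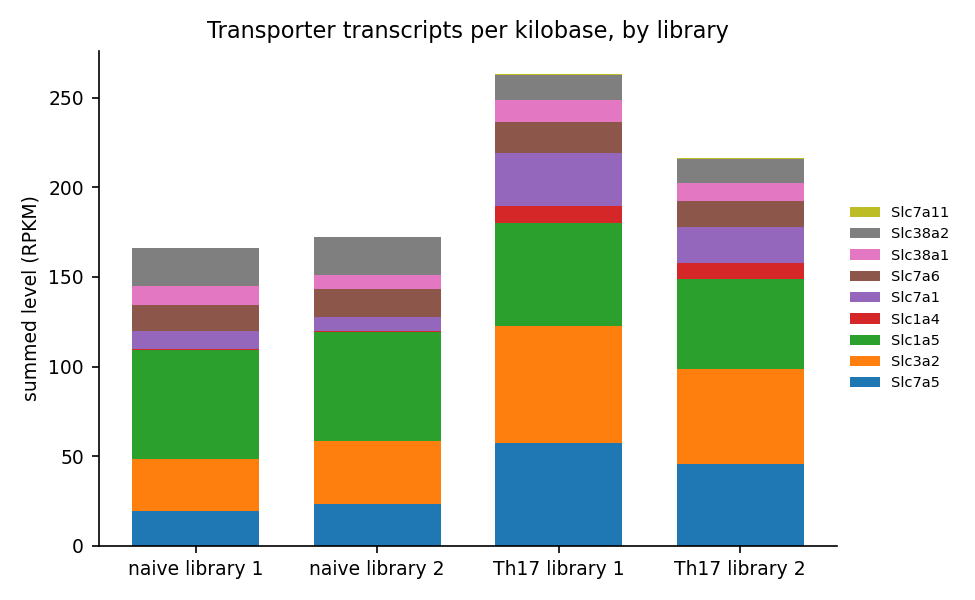
Stacked level of the 9 transporter genes in RPKM for each of the 4 libraries, on an axis from 0. Slc7a5, Slc3a2 and Slc7a1 take a larger part of the Th17 bars, Slc1a4 appears only as a visible band there, and the band of Slc38a2 is narrower.

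Among 97 tested genes of the lists used here, the 3 whose log2 CPM over the 4 libraries was most like that of Slc7a5, each gene centred on its own mean, were Atf4, Got2 and Shmt2, with root mean square differences of 0.05, 0.07 and 0.14. Atf4 had 158 and 182 CPM in naive and 431 and 371 CPM in Th17 cells. For Slc38a2 the most alike were Nfe2l2, Tsc2 and Nprl3, at 0.09, 0.10 and 0.10. With 4 libraries in 2 groups this likeness describes mostly the size of the change between groups.

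Of 27 other transporters of the plasma membrane on the list, 23 were in the table and 15 passed the filter on low counts. Of these 9 were called higher and 1 lower, and the 8 that did not pass are not part of these counts. Genes that passed only through their Th17 reads had to differ, and 34.3% and 30.7% of all tested genes were called in these directions. In log2, the median of these 15 genes was 3.67, which is the value of Slc3a1, or 2.81 with genes at 0 naive reads set at their lower bound, and it was 1.79 over 15 tested genes without Th17 library 2. Slc7a3, which encodes CAT3, rose from 0.690 and 0.915 to 21.5 and 15.0 CPM, with a log2 fold change of 4.51 (SE 0.34). Slc7a2, which encodes CAT2, had 0 naive reads and 96 and 23 Th17 reads, with a Th17 mean 13.7-fold over the floor of 3 naive reads. The glycine transporter gene Slc6a9 rose from 0.212 and 0.352 to 12.8 and 9.93 CPM. The glutamate transporter gene Slc1a2, with 25 and 8 Th17 reads against 0, had a Th17 mean 3.98-fold over that floor. Slc7a3 had an adjusted p of 6.8e-06 by edgeR. Slc7a2 and Slc1a2, with 0 naive reads, and Slc6a9, with 4 and 5, passed the filter through their Th17 reads alone. Their calls could only be higher, and their adjusted p of 1.3e-05 to 0.0038 by edgeR adds no support beyond the reads.

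The 1 gene called lower was Slc43a2, which encodes the leucine transporter LAT4, at 93.1 and 59.6 CPM in naive and 42.8 and 53.9 CPM in Th17 cells. That call had an adjusted p of 0.045 by edgeR and was lost in 8 of the 11 alternatives, among them without naive library 1 at a log2 of -0.34 and without naive library 2 at -1.02. Slc38a10 lay at 142 ± 8.61 and 147 ± 16.5 CPM (SD, n = 2) and was not called. Without naive library 1, and likewise without naive library 2, 5 of the 9 higher calls remained, with Slc16a10, Slc1a2, Slc43a1 and Slc7a7 lost. Slc1a2 was also lost without Th17 library 1, and Slc16a10 without Th17 library 2.

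Several transporters of this list were high in Th17 library 2 alone. Of the 23 genes, 9 lay over 8 times higher there than in Th17 library 1, with at least 10 reads there, against 1189 of all 16308 genes. Of these, 3 of the 9 and 186 of the 1189 passed the filter on low counts. The 9, named after their values were seen, were Slc1a1, Slc1a3, Slc3a1, Slc6a15, Slc6a19, Slc7a8, Slc7a9, Slc7a13 and Slc38a3. Slc3a1, the heavy chain of the cystine transporter of kidney tubules, had 1.01 and 1.97 CPM in naive cells, 0.104 in Th17 library 1 and 38.0 in Th17 library 2. Its log2 fold change was 3.67 without a call, and -3.74 with an adjusted p of 0.00061 by edgeR without Th17 library 2. Slc7a13 had 0 reads in the other 3 libraries and 353 in Th17 library 2. Without Th17 library 1, 16 of the list were called higher. Without Th17 library 2, 9 were called higher, 8 of them shared with the 9 above. These genes moved with the kidney markers given above, whose part was not tested.

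**Figure D4:**
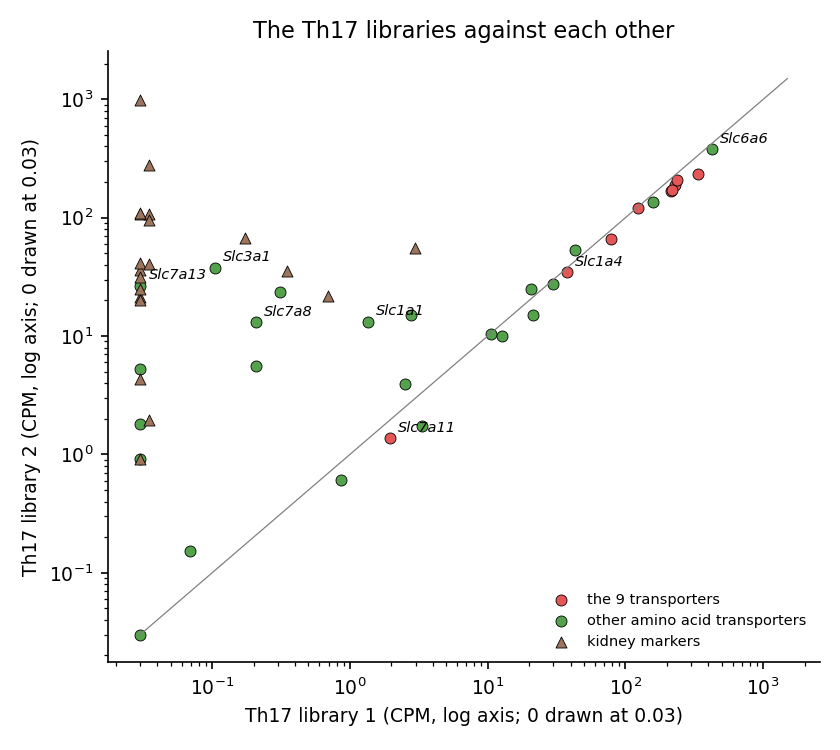
Level in Th17 library 2 against Th17 library 1, in CPM on log axes, for the 9 transporter genes (red), the other amino acid transporters (green) and the kidney markers (brown triangles), with the line of equal levels. The 9 genes lie along the line, slightly below it, while Slc3a1, Slc7a13, Slc7a8 and the kidney markers lie far above it.

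Of 7 tested transporters of the lysosome 4 fell and 1 rose, a number of genes too small to set closely against the 30.7% and 34.3% of all tested genes. Slc38a9, which encodes the arginine-sensing transporter that signals to mTORC1, had 42.0 and 27.3 CPM in naive and 16.5 and 20.2 CPM in Th17 cells, a log2 fold change of -0.93 (SE 0.23). The proton-coupled transporter gene Slc36a1 changed by -1.94 (SE 0.37), the cystine exporter gene Ctns by -1.05 (SE 0.18) and Mfsd12 by -0.66 (SE 0.22). Slc15a3, a peptide and histidine transporter gene, had 3 reads in each naive library and 297 and 239 CPM in Th17 cells. It passed the filter on low counts through its Th17 reads alone, so its call could only be higher. Slc15a4 and Slc38a7, at -0.31 and -0.33, were not called. Without naive library 1 only Ctns was still called lower, and without naive library 2 Ctns and Slc38a9 were.

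Of 35 tested genes through which mTORC1 senses amino acids, 11 were higher (31.4%) and 13 lower (37.1%), near the 34.3% and 30.7% of all tested genes, so the counts set the list apart in neither direction. The leucine sensor gene Sesn2 rose from 6.63 and 7.82 to 117 and 89.4 CPM, while its relative Sesn1 fell from 132 and 110 to 15.9 and 19.0 CPM. Fnip2 and Rragd, which act in the Rag GTPase branch, had log2 fold changes of 3.69 (SE 0.47) and 1.85 (SE 0.27), and that of Tbc1d7, a subunit of the TSC complex, was 2.40 (SE 0.27). Genes that fell included Kptn of the inhibitory KICSTOR complex, which changed by -1.35 (SE 0.19), and Nprl2 of the GATOR1 complex, which changed by -1.31 (SE 0.16). Mtor itself, at 77.2 ± 20.7 and 89.3 ± 0.695 CPM (SD, n = 2), and Sesn3 were not called. Without either naive library 6 of the 11 higher calls remained, and each gene named as changed here kept its call in both cases.

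Of 15 genes that control transporter genes or proteins, 8 were higher and 5 lower, or 53.3% and 33.3% against 34.3% and 30.7% of all tested genes, so the lower share was near that of all genes. Myc rose from 96.7 and 80.5 to 353 and 269 CPM, Hif1a by a log2 of 2.82 (SE 0.18) and Trib3, a target of ATF4, by 2.35 (SE 0.19). The ubiquitin ligase gene Nedd4 rose from 7.32 and 6.48 to 93.2 and 84.6 CPM, whereas Nedd4l, whose product ubiquitinates several transporters, changed by -0.96 (SE 0.17). Bach1, a repressor at antioxidant response elements, changed by -3.05 (SE 0.23), Nfe2l2, which encodes NRF2, by -0.72 (SE 0.16) and Keap1 by -0.42 (SE 0.15). Cebpg and Rnf5, at 0.37 and -0.35, were not called. Without naive library 2 only Bach1 and Nfe2l2 kept their lower calls, and Nedd4l was also lost without naive library 1. Keap1 lost its call with each library left out in turn, under upper quartile and total count scaling and with no filter.

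**Figure D5:**
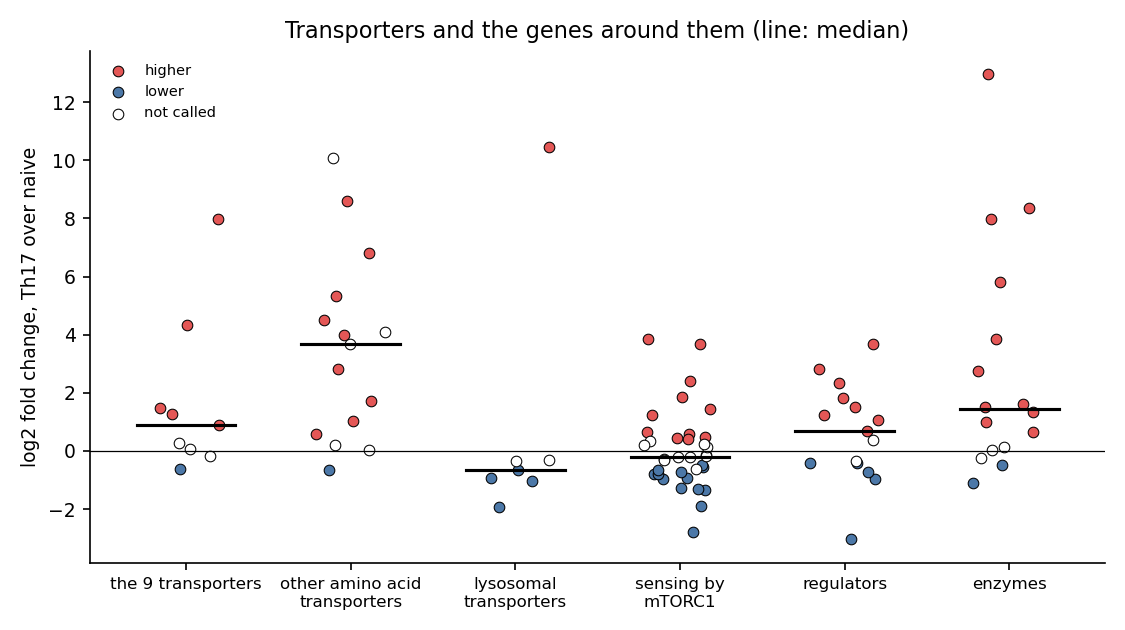
Fold change (log2, Th17 over naive) of each tested gene of the 6 lists (points), red where called higher, blue where called lower and white where not called, with a line at each list's median. Lysosomal transporters lie mostly below 0, and the sensing genes lie on both sides of it.

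A-to-I edited sites, adenosines that ADAR enzymes turn into inosine, were looked for in the 9 genes as another readout. Of the 869 sites listed for naive and Th17 cells 0 lay in any of them, by gene name or by position, and of the 355 sites listed for wild-type and DDX5-deficient Th17 cells 0 did. The depth at sites that are not listed is unknown, and no statement is made about editing there.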

How the data were processed

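RNA was depleted of ribosomal RNA and sequenced in 8 libraries, 2 in each of 4 groups. Counts per gene, called original per the file headers, were deposited for the naive and Th17 libraries. Per the submitters' processing notes, the mm10 build, the aligner STAR (2.6.1a), the counter featureCounts and DESeq2 (1.18.1) were used, and the settings and use of strand in counting are not given in the sources used here. The authors also deposited a normalized signal, the count divided by 1 size factor per library, and the log2 fold change, its standard error as a score and the adjusted p-value of their own comparison. Edited sites came with the fraction of edited reads per library, which the authors deposited on a scale of 0 to 1 and which is printed as a percent.

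Counts were tested with edgeR 4.0.16 in R 4.3.3 (filterByExpr, TMM, robust quasi-likelihood fit on group, Benjamini-Hochberg over all 11989 tested genes, called at an adjusted p under 0.05). The fit was also run on simulated counts with the same dispersion for every gene and no library set apart. That run thus does not bear on the effect of Th17 library 2. Gene models and exon lengths came from GENCODE M21 of the same build, which matched 16295 of 16308 gene IDs. No exon of the 9 genes overlapped an exon of another annotated gene. Intervals are at 95%. Floors of 3 reads and intervals of shares cover counting error only, since PCR copies were not told apart by molecular identifiers. Alternatives were RLE, upper quartile and total count scaling, no filter, a minimum mean normalized count of 10, DESeq2 1.42.0, a replicate block and leaving out each library. From each list the text names the 4 largest called rises and falls and the 2 most abundant genes not called, except that some genes the rule picks are not reported here. The transporter genes and lists were chosen with earlier results of these data known. Whether replicates came from separate animals is not given in the sources used here, so p-values measure the spread between these libraries, which may be technical. The kidney and fibroblast markers and the principal transcript length were added after the data were seen.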

Additional observations from a re-analysis of the deposited data

How the results depend on the processing

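With 2 libraries a group, depth limits the low genes most, as the floor of 3 reads for Slc7a11 shows. Scaling by total counts alone moved the median of all genes by 0.30, and then Slc1a5 was at 0.12, Slc7a6 at 0.38 and Slc38a1 at 0.58 in log2, the latter pair called higher, Slc38a2 was at -0.32 without a call, and 0 of the 9 genes were lower. Under it Mat2a was at 0.053, and 0 other transporters, 2 lysosomal, 8 sensing, 3 regulator and 1 enzyme gene were lower. Upper quartile scaling moved the median by 0.11 and gave 0 other transporters, 3 regulators and 1 enzyme gene lower. No filter gave 7 sensing genes higher and 0 other transporters, 3 regulators and 1 enzyme gene lower, and the minimum mean count of 10 gave 0 and 1 for transporters and enzymes. RLE scaling and the replicate block each gave 0 other transporters lower. The cause was not tested.

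Leaving out 1 library gave 3 to 5 of the 9 genes higher and 1 lower. All genes higher ran from 2380 to 4847, other transporters from 5 to 16 higher and 0 to 2 lower, lysosomal genes from 1 to 4 lower, sensing genes from 6 to 10 higher, regulators from 2 to 3 lower and enzymes from 1 to 2 lower. In log2, Slc3a2 ran from 0.70 to 1.03, Slc7a1 from 1.17 to 1.73, Slc7a11 from 7.38 to 8.33 and Slc7a6 from -0.075 to 0.20. Signs changed for Slc38a10 (-0.11 to 0.16), Mtor (-0.11 to 0.47) and Slc3a1 (-3.74 to 4.67). The difference of library 1 from library 2 in naive cells did not go with that in Th17 cells (r = -0.08 across 11989 genes). As only the libraries called 2 here share a number in the headings, this cannot tell whether those came from 1 animal. With a replicate block, which joins libraries by their order in each group, 5 of the 9 genes were higher and 1 lower, the same genes as without it. Without a shared origin stated, libraries of the groups were not treated as pairs. Each of the 5 ratios kept its direction with 0.5 reads added and without each library.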

Other observations

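Enzymes that use the imported amino acids mostly rose. Of 18 on the list 16 were tested, and 11 were higher and 2 lower by edgeR's quasi-likelihood test, with 34.3% and 30.7% of all tested genes called in those directions. Among the 11, Gls2, Asns and Bcat1 passed the filter on low counts only through their Th17 reads, so their calls could only be higher. Odc1, which makes polyamines from ornithine, rose from 42.3 and 39.1 to 2540 and 2000 CPM. The arginase genes Arg1 and Arg2 were not tested, with 0 and 0 and with 0 and 4 reads in the Th17 libraries. Asns, asparagine synthetase, had 8 and 6 naive reads and 126 and 91.8 CPM in Th17 cells, and Bcat1, the cytosolic transaminase of branched-chain amino acids, rose from 0.690 and 0.211 to 178 and 138 CPM. The glutaminase gene Gls2 had 0 naive reads and was at least 288-fold higher. Gclc, which encodes the catalytic subunit of the first enzyme of glutathione synthesis, fell from 61.8 and 63.0 to 25.5 and 32.4 CPM. Bcat2, the mitochondrial transaminase, changed by a log2 of -0.47 (SE 0.16) and lost its call in 7 of the 11 alternatives, among them without either naive library. Mat2a was not called.

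The taurine transporter gene Slc6a6, named after its values were seen, was the 1 gene among the other transporters with edited sites. It had 142 and 102 CPM in naive and 424 and 378 CPM in Th17 cells. A site in its 3′ UTR (chromosome 6, position 91758167, mm10) was edited at 17.1% and 9.09% in naive libraries, 5.41% and 6.98% in Th17 libraries, 13.8% and 8.70% in wild-type Th17 libraries and 12.8% and 9.65% in DDX5-deficient Th17 libraries of the further culture. The deposited coverage gave whole edited reads for Th17 library 2, 12 of 172 (exact Clopper-Pearson interval 3.66% to 11.9%), and for wild-type library 2, 4 of 46 (2.42% to 20.8%), and the depth of the other libraries is unknown. Wild-type and DDX5-deficient levels overlapped, and so did the ranges of naive and wild-type Th17 levels. Another site of Slc6a6 (position 91755213) was listed in Th17 cells alone, at 3.68% and 5.22%. The difference between naive and Th17 levels was not tested.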
